A study of Homo sapiens with 8 samples.

Results

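The last 7.13 Mb of human chromosome 19 (hg19, 52000000 to 59130000) were examined in 7 ChIP-seq peak lists, where a peak is an interval of the genome enriched in DNA bound by the immunoprecipitated factor. The stretch was chosen by the density of GABPA peaks, which is highest here, so the GABPA counts below describe the choice and were not tested. It holds 345 of the 24078 peaks of all lists, counted by their centres, against 1644 peaks in the remaining 52 Mb of the chromosome. In DU145, a prostate cancer cell line, the factors were ETS1, GABPA, ELF1, ELK4 and JUND. In PANC1, a pancreatic cancer cell line, the factor was ETS1. Each factor and line has 1 sample, the 2 input samples were not used here, and the DU145 ETS1 sample has 2 lists, the second marked R2. The labels name no genotype or treatment, and the growth label mentions puromycin for selected cells without saying which samples that covers. The lists hold positions only, so the depth behind a peak is unknown.

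ETS1, GABPA, ELF1 and ELK4 belong to the ETS family of transcription factors, named for a common domain that reads a GGAA core in DNA. GABPA pairs with GABPB and is known for binding promoters of widely expressed genes, ELK4 acts with serum response factor, and JUND is a subunit of AP-1, which reads a different sequence. The end of chromosome 19 is known for long arrays of KRAB zinc finger genes, which arose by tandem duplication and encode DNA-binding repressors that act through TRIM28, many of them on transposable elements. The same arm end also holds leukocyte receptor genes, NLRP genes and a large primate microRNA cluster.

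In the RefSeq gene order of GRCh38.p14, 233 protein-coding genes follow from HAS1, a hyaluronan synthase gene used here as a marker near the start of the stretch, to the end of the chromosome. Of these, 110 are zinc finger genes by symbol, 24 are leukocyte receptor genes, 9 are NLRP genes and 3 are vomeronasal receptor genes. A further 15 are ribosomal protein and other housekeeping genes. These 15 were listed by name beforehand and all were found, so they are no count of housekeeping genes in general. The zinc finger genes fall at both ends, with 38 of 52 protein-coding genes from HAS1 to before NLRP12, 23 of 119 from NLRP12 to before ZNF264, and 49 of 62 from ZNF264 to the end. The peaks are placed on hg19 and the RefSeq tables on GRCh38.p14, so which gene lies at which peak was not determined here.

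To show what an ETS factor could read in these arrays, the RefSeq promoters, 250 bases before to 50 after the gene's first base, were searched for CCGGAAG, a motif of ETS factors, and for its reverse complement CTTCCGG. The windows below are 30 bases long, read 5′ to 3′ on the gene's own strand, with that motif in capitals. They belong to the first 5 genes of each array, in gene order, whose motif lies within 40 bases of the gene's first base. From HAS1 to before NLRP12 these were the following.
ZNF432: ctgaggaaaagCCGGAAGgccgcattccgc
ZNF841: ttcctgcacacCCGGAAGcagatcgcgctg
ZNF616: ttccgtcactcCCGGAAGcagattgcgcca
ZNF766: cgcctgcagacCCGGAAGtggatggcgtgg
ZNF880: ttcctggagacCCGGAAGcagattacgtgg
From ZNF264 to the end of the chromosome these were the following.
ZNF264: tgggggcgggaCTTCCGGgttgctcgctgc
ZNF805: ttggggcgggaCTTCCGGcatttggatggg
ZNF419: aatgggcgggaCTTCCGGcgtctcgtttgg
ZNF773: aactcagcttgCCGGAAGctggttgttcgc
ZNF549: tacgccagaatCTTCCGGcgtctttccggt
In 2 pairs of genes the windows were identical over all 30 bases.
ZNF808 and ZNF611: ttaacgcaaacCCGGAAGcggatcgggtgg
ZNF587B and ZNF814: atgggtccggaCTTCCGGcgccctctggtg

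The motif was in 54 of the 93 zinc finger promoters that the RefSeq table gave for this end of the chromosome (58.1%). It was in 2255 of 15843 promoters of all protein-coding genes (14.2%), in 12 of 99 promoters of the other genes at this end (12.1%), and in 46 of 136 zinc finger promoters elsewhere on chromosome 19 (33.8%). Within 40 bases of the gene's first base, it was in 49.5% of the zinc finger promoters at this end and in 7.26% of all. None of the 19 leukocyte receptor promoters held it, and 4 of the 13 promoters given for the listed housekeeping genes did. The AP-1 motif TGANTCA, searched on both strands, was in 7.53% of the zinc finger promoters at this end and in 5.75% of all promoters. By gene block it was in 6 of 31 from HAS1 to before NLRP12 (19.4%), in 0 of 16 from there to before ZNF264, and in 1 of 46 from ZNF264 on (2.17%).

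The 2 arrays differed in how the motif was placed. From HAS1 to before NLRP12, 19 of 31 zinc finger promoters held it (61.3%), and in all 19 the motif nearest to the first base read CCGGAAG on the gene's strand, as in ZNF841 and ZNF766. That motif lay 4 bases downstream of the first base in 10 of the 19, and the letters AC stood directly before it in 16 of the 31 promoters (51.6%), against 0.909% of all promoters. From ZNF264 to the end, 29 of 46 held it (63.0%), and in 22 of the 29 the nearest motif read CTTCCGG, as in ZNF264 and ZNF419. The nearest motif lay 13 to 37 bases upstream in 17 of the 29, and GGA stood directly before CTTCCGG in 17 of the 46 (37%), against 0.309% of all promoters. Between the arrays, 6 of 16 zinc finger promoters held the motif (37.5%), the nearest in each case as CTTCCGG. The gene blocks and the letters beside the motif were picked after their values were seen, and duplicated genes are not independent, so these shares are descriptions. A motif match is no proof of binding.

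Peaks of GABPA and ETS1 were denser in the stretch than in the rest of the chromosome, for GABPA by the choice of the stretch. GABPA had 59 peaks here and 190 in the rest, or 8.27 and 3.65 per Mb, a ratio of 2.26 with a 95% interval of 1.66 to 3.05. The first DU145 ETS1 list had 130 and 668 peaks (18.2 and 12.8 per Mb, ratio 1.42), and the second had 132 and 639 (18.5 and 12.3 per Mb, ratio 1.51). ETS1 regions, the merged intervals of overlapping peaks that both DU145 ETS1 lists contribute to, numbered 116 and 557 (16.3 and 10.7 per Mb, ratio 1.52, 1.23 to 1.86). ETS1 in PANC1 had 12 and 31 peaks (1.68 and 0.596 per Mb, ratio 2.82, 1.32 to 5.65), and the ratio was 1.76 against the long arm outside the stretch (23 peaks). The other lists had few peaks in the stretch, namely 2 for ELF1 (ratio 0.634, 0.0725 to 2.57), 4 for ELK4 (0.941, 0.241 to 2.66) and 6 for JUND (0.706, 0.249 to 1.63). With each DU145 list cut at the midpoint of its lines the ratio was 1.58 for GABPA, 0.365 for ELK4 (1 peak) and 0.243 for JUND (1 peak). Intervals cover counting error only, and no ratio was tested, because ETS1 shares its sites with GABPA.

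Among windows of the same length started every 0.5 Mb, the densest on chromosome 19 that lay wholly before the stretch held 43 GABPA peaks, from position 35000000. On other chromosomes the densest held 44, on chromosome 1 from 150000000. Within the stretch, 48 GABPA peaks lay from 56 Mb on (15.3 per Mb) and 11 before it (2.75 per Mb). ETS1 regions were split more evenly, with 69 (22.0 per Mb) and 47 (11.8 per Mb). In bins of 1 Mb from 52 Mb, GABPA had 4, 1, 2, 4, 9, 10, 24 and 5 peaks, the last bin not being full. The median of the 52 bins of the rest was 3, 12 of them held 0, and the highest held 17. The empty bins include all those from 21 to 32 Mb, where ETS1 regions also numbered only 0 to 4 per bin. The bin from 58 Mb, with 24, was thus above every bin of the rest, while the 4 bins before 56 Mb held 1 to 4.

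**Figure D1:**
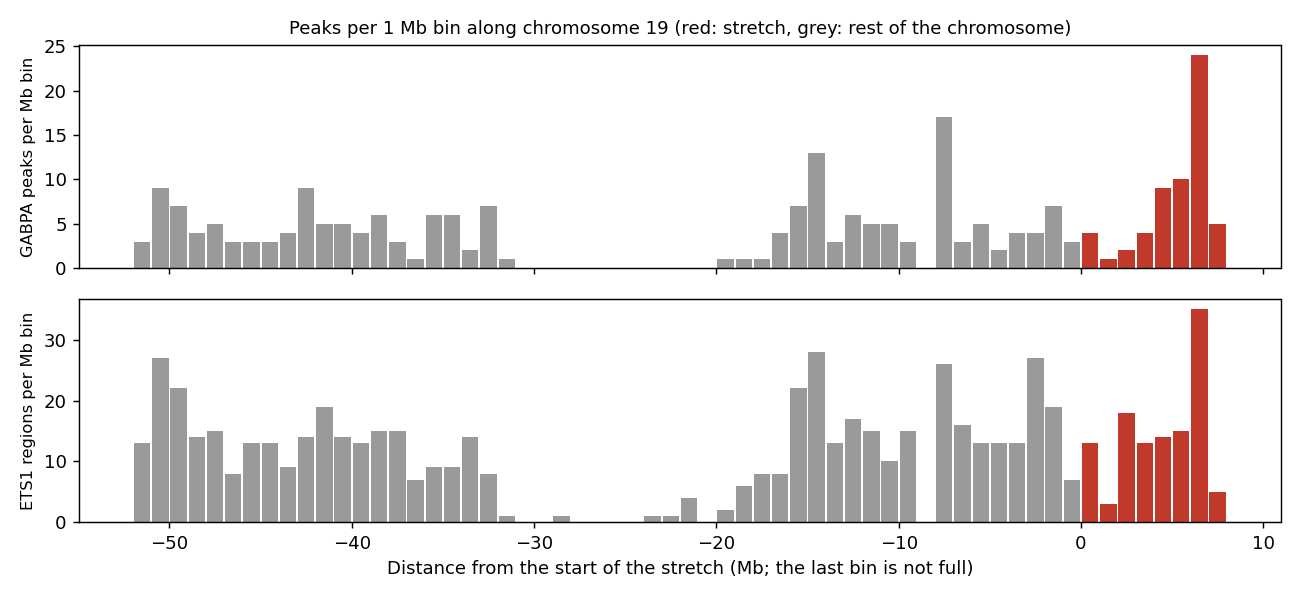
GABPA peaks and DU145 ETS1 regions per 1 Mb bin along chromosome 19, with bins placed by their distance from the start of the stretch (Mb) and the stretch in red. The bin with 24 GABPA peaks is the highest of the chromosome, and the highest bin of the rest holds 17.

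The stretch began between peaks, not inside a group of them. The last GABPA peak before it ended 102 kb outside (51897454 to 51897933), and the first inside lay 74.6 kb from the edge (52074384 to 52074870). For ETS1 the last peak outside was 129 kb away and the first inside 74.5 kb away in both lists. The last GABPA peak of the chromosome was at 59083990 to 59084482. ELF1, ELK4, JUND and PANC1 ETS1 had their nearest outside peaks 1180 to 5502 kb from the edge.

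Intervals without a peak of any list divide the stretch. There were 8 gaps over 200 kb, which together took up 2.89 Mb (40.5% of the stretch) and left 9 blocks. The widest gaps were 595 kb (57107244 to 57702575), 541 kb (54976395 to 55517306) and 444 kb (56187273 to 56631582). No gene was assigned to any gap.

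The last block, 57702576 to 59087606 (1385 kb), held 51 of the 116 ETS1 regions, and 37 of these held a GABPA peak (72.5%, 58.3 to 84.1). It also held 38 of the 59 GABPA peaks, a median of 31.2 kb apart, 6 of the 12 PANC1 ETS1 peaks and 1 ELF1 peak. GABPA and ETS1 followed each other closely there: from 57702581 to 57832308, 4 ETS1 regions in a row held GABPA, a median of 40 kb apart, and from 57988376 to 58126334 a row of 8 did, a median of 19.1 kb apart. A further row of 5, from 58816061 to 58899368, was spaced by a median of 20 kb. Such rows were not limited to the last block: another of 8 ran from 56091980 to 56633449, a median of 18.9 kb apart, across the gap between blocks 7 and 8.

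In blocks 2, 4, 5, 6, 7 and 8 most ETS1 regions lacked GABPA. The same was true of the rest of chromosome 19, where 178 of 557 ETS1 regions held GABPA (32.0%). That share lies within the interval of each of these blocks, so a lack of GABPA does not set them apart. Block 2, 52407759 to 53073837, held 12 ETS1 regions and 2 with GABPA (16.7%, 2.09 to 48.4), block 4 held 5 and 1, and block 5, 54369212 to 54705607, held 13 and 2 (15.4%, 1.92 to 45.4). From 52096962 to 52619194 there was a row of 8 ETS1 regions without GABPA, spaced by a median of 22.2 kb. That row began in block 1, and a GABPA peak at 52598754, which met the first ETS1 list only, lay inside it. Longer rows of 11 ran from 54023534 to 54619820 and from 54681810 to 55771518. The latter also spanned GABPA peaks that met no ETS1 region. Among the longer blocks, block 5 was the densest in ETS1 regions, at 38.6 per Mb, against 36.8 per Mb in the last block. Block 7, 55517307 to 56187272, lay between these, with 9 of 20 ETS1 regions holding GABPA (45.0%, 23.1 to 68.5), 11 GABPA peaks and the GABPA-bearing sites of ELK4. Block 8 had 3 of 11 (27.3%), block 1 had 1 of 2, block 6 had 0 of 2, and block 3 was a single peak of the second ETS1 list. The blocks were cut after the peaks were seen, and their shares were not tested against each other.

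**Figure D2:**
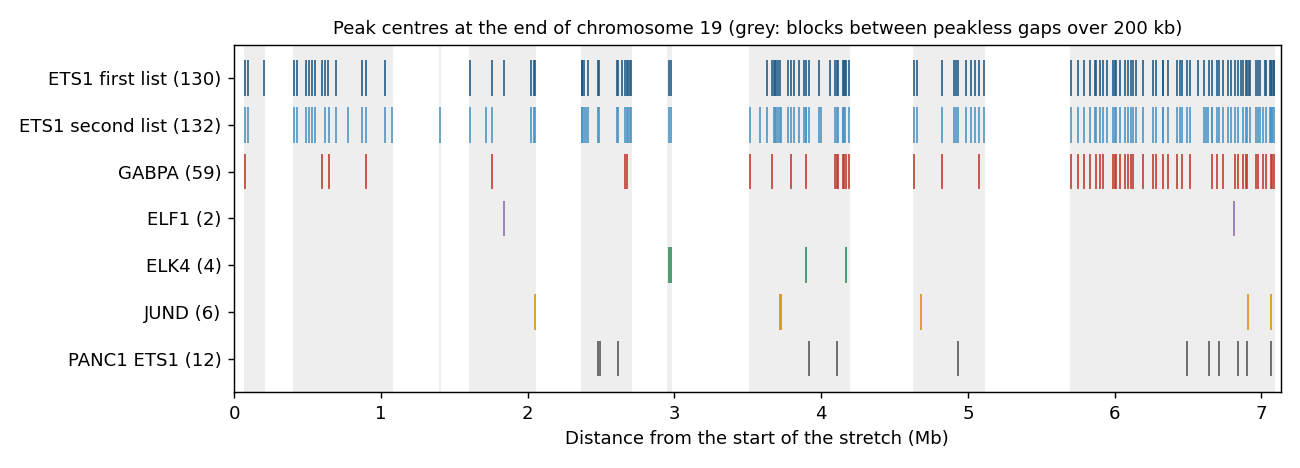
Peak centres of each list along the stretch, by distance from its start (Mb), 1 row per list, with the blocks shaded. GABPA centres crowd into the last block, where 38 of the 59 lie, and the ELF1, ELK4 and JUND rows hold 2, 4 and 6.

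Neighbouring GABPA peaks, and with them ETS1 regions, lay closer together in the stretch, which for GABPA follows from the density that chose it. The median distance between neighbouring GABPA centres was 35.2 kb (27.7 to 50) in the stretch and 108 kb (79.4 to 149) in the rest, and 27 of 58 such distances were between 10 and 40 kb (46.6%), against 35 of 189 (18.5%). The GABPA median of the stretch was 66.3 kb with the lists cut at the midpoint of their lines. For ETS1 regions the medians were 25.7 and 38.7 kb, and 59.1% and 39.0% of the distances fell in that range. Pairs under 10 kb were few: 10 GABPA peaks of the stretch (16.9%) and 14 of the rest (7.37%) had another that close, always in pairs and never in a longer run. For ETS1 regions that share was 21.6% and 22.1%. The closest GABPA pairs were 4.49 kb apart (59066110 to 59066604 and 59070599 to 59071095), 5.93 kb, 6.51 kb, 8.47 kb and 9.96 kb. The medians of the sparse lists went either way, at 150 kb in the stretch and 544 kb in the rest for PANC1 ETS1 but 954 and 303 kb for JUND, from 6 peaks in the stretch. The widest GABPA gaps were 905, 857 and 841 kb, all before 56 Mb. Pairs under 10 kb were thus the smaller part of the neighbours on both sides.

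**Figure D3:**
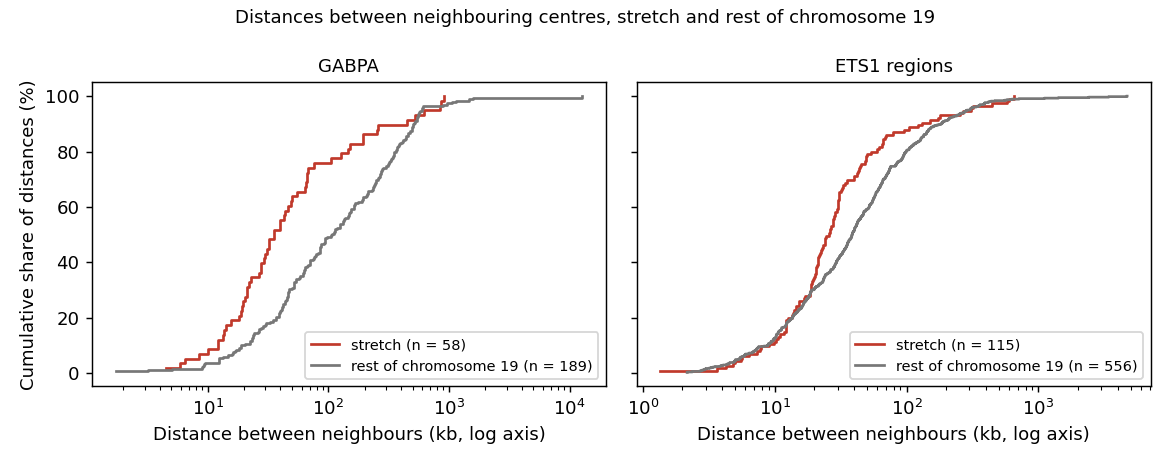
Cumulative share of distances between neighbouring centres (log axis, kb) for GABPA peaks and DU145 ETS1 regions, in the stretch and in the rest of chromosome 19. The stretch curves lie to the left around their middle and meet or cross those of the rest at the far end, with medians of 35.2 against 108 kb for GABPA and 25.7 against 38.7 kb for ETS1 regions.

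GABPA peaks mostly coincided with ETS1. In the stretch 55 of 59 met an ETS1 region by at least 1 bp (93.2%, 83.5 to 98.1), against 179 of 190 in the rest (94.2%), with an odds ratio of 0.846 (0.238 to 3.79) and an adjusted p of 1 by Fisher's exact test. The odds ratio lay above 1 under 4 of the alternative settings (1.03 to 1.60). Where both had a peak, the centre of the GABPA peak lay a median of 67.5 bp from that of the second ETS1 list (56 peaks), and 76.5 bp in the rest (175 peaks). The 4 exceptions were a peak at 52598754 that met the first ETS1 list only, peaks at 55517307 and 59010560 that met the second only, and 1 at 55663236 to 55663728 that met neither. Seen from ETS1, 55 of 116 regions held GABPA (47.4%, 38.1 to 56.9), against 178 of 557 (32.0%), a difference that follows from how the stretch was chosen and was not tested. With each DU145 list cut at the midpoint of its lines it turned, to 16 of 76 (21.1%) against 80 of 301. In either place, then, few GABPA peaks lay away from ETS1, while many ETS1 regions lay away from GABPA. GABPA had fewer peaks than there were ETS1 regions, with 59 for 116 in the stretch and 190 for 557 in the rest. The part of list length in this contrast was not tested, and no difference in binding is read from it. Also in the 4 bins of the rest with 8 or more GABPA peaks, 46 of 95 ETS1 regions held one (48.4%, 38.0 to 58.9). In the 3 such bins of the stretch it was 43 of 64 (67.2%, 54.3 to 78.4). These bins were picked by their GABPA counts, so high shares are built in on either side. They held 48 GABPA peaks in the rest and 43 in the stretch, and the difference was not tested.

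No difference in sharing or placement passed the test: of 19 Fisher's exact tests, 0 passed after Benjamini-Hochberg adjustment. The lowest p was 0.0858, the lowest adjusted p was 0.486, and 0 had an unadjusted p under 0.05. Of the 19 tests, 4 set the share of a list's peaks that lay in the stretch against that of ETS1 regions, and the lowest p was one of them. Because 55 of the 116 ETS1 regions hold GABPA, that reference moves with the choice of the stretch, so nothing is read from those 4 and their shares are given as values. The same regions are counted in the tests of ETS1 regions that hold ELF1, ELK4, JUND or PANC1 ETS1. The choice of the stretch enters those tests too, so nothing is read from their odds ratios. For the lists with 2 to 12 peaks in the stretch, only large differences could have been detected, and a test that did not pass does not show equal shares.

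ELF1, an ETS factor of the ELF group, had 2 peaks. One lay in a site at 58816061 to 58817531 with ETS1 and GABPA, and the other at 53836651 to 53837427 met only the first ETS1 list, so 1 of 2 met an ETS1 region (50%), against 82.6% in the rest. ETS1 regions held ELF1 in 0.862% of cases, against 3.41% in the rest, with an odds ratio of 0.247 (0.00588 to 1.58) and an adjusted p of 0.537 by Fisher's exact test. Of the GABPA peaks, 1.69% met ELF1, against 7.89%. Of ELF1's chromosome 19 peaks 2 of 25 lay in the stretch, against 17.2% of ETS1 regions.

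ELK4 had 4 peaks, and all 4 met an ETS1 region (100%, against 83.9% in the rest). They lay at 54959283 to 54961170, at 54973229 to 54976394, at 55895143 to 55898274 and at 56165011 to 56167263, the last pair also with GABPA. ETS1 regions held ELK4 in 3.45% of cases, against 4.49%, with an odds ratio of 0.760 (0.189 to 2.26) and an adjusted p of 1 by Fisher's exact test. For ELK4 with GABPA, 1.69% of the GABPA peaks met it, against 6.84% in the rest, although 2 sites hold both. Of ELK4's chromosome 19 peaks 11.4% lay in the stretch (3.20 to 26.7). A site joins every interval that overlaps, so its ELK4 and GABPA peaks need not touch each other.

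JUND, the AP-1 factor, had 6 peaks, of which 2 met an ETS1 region (33.3%, against 40.3%). They were at 54048448 to 54049282 and in the site at 59065514 to 59067186. Those at 55718226 and 55727894 met the second ETS1 list only, and those at 56681538 and 58906754 met no other list. Of JUND's chromosome 19 peaks 8.82% lay in the stretch (3.31 to 18.2). ETS1 regions held JUND in 1.72% of cases, against 4.49%, and 1.69% of GABPA peaks met JUND, against 2.11%.

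ETS1 in PANC1 had 12 peaks, and 10 met a DU145 ETS1 region (83.3%, 51.6 to 97.9, against 87.1%). The 2 lines thus shared most of the PANC1 sites here and in the rest of chromosome 19. The pair without, at 54481786 to 54482285 and 54492829 to 54493329, lay in block 5 and met no other list. Of the chromosome 19 peaks of PANC1, 27.9% lay in the stretch (15.3 to 43.7), against 17.2% of the DU145 ETS1 regions. Of the DU145 ETS1 regions 8.62% held a PANC1 peak, against 4.85%, and of the GABPA peaks 6.78%, against 4.21%. The PANC1 sites without GABPA that met DU145 ETS1 were at 54617947, 55918517, 56934722, 58489783, 58639062 and 58708056.

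The 2 DU145 ETS1 lists shared most of their peaks. In the stretch 116 of 130 first-list peaks met the second list (89.2%, against 83.4%), with an odds ratio of 1.65 (0.903 to 3.23) and an adjusted p of 0.486 by Fisher's exact test. Of the second-list peaks 117 of 132 met the first (88.6%, against 88.4%). With peak centres within 200 bp as the criterion, both shares passed the test (odds ratios 2.18 and 1.84, adjusted p 0.00484 and 0.0380 by Fisher's exact test). Both count 98 peaks of the stretch, the same overlaps seen from either list. Because 55 of the 116 ETS1 regions hold GABPA, the choice of the stretch can enter here too, so nothing is read from these 2 tests. Intervals differed in width between the lists, with medians of 1262 bp in the first and 497 bp in the second. The widest ETS1 regions were 56151877 to 56155693 (3817 bp), 55895143 to 55898274 (3132 bp), 54973229 to 54976308 (3080 bp), 54482985 to 54486047 (3063 bp) and 59069575 to 59071665 (2091 bp).

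**Figure D4:**
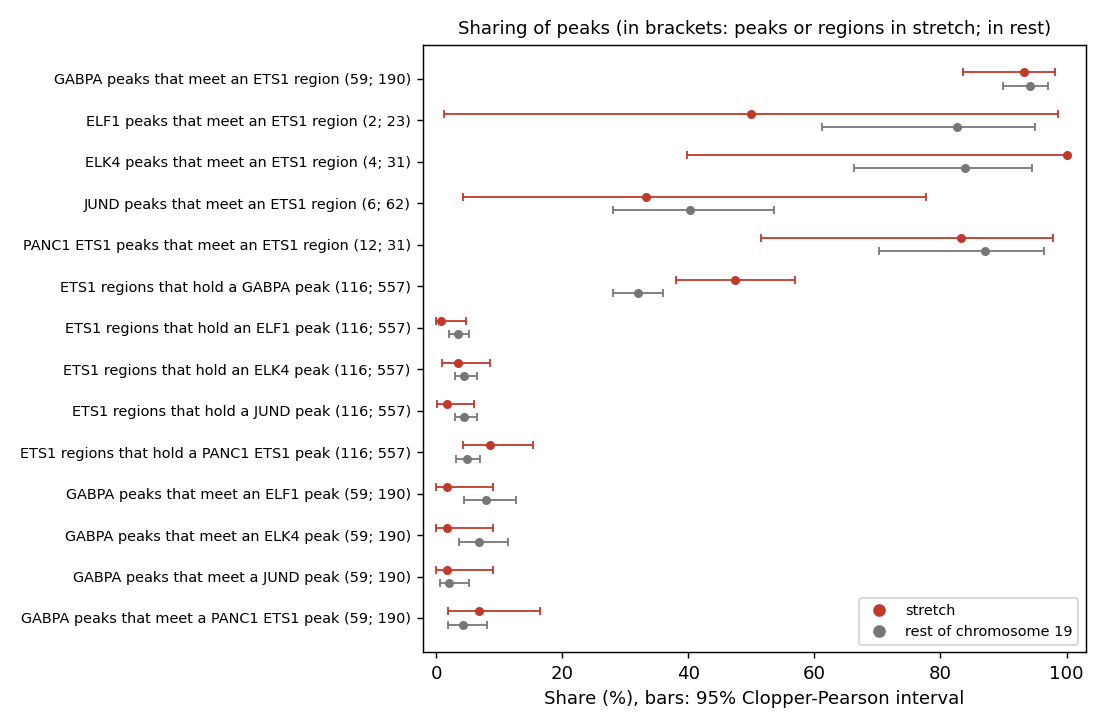
Shares of peaks that meet another list, in the stretch and in the rest of chromosome 19, with 95% Clopper-Pearson bars and the numbers of peaks or regions in brackets. The bars overlap widely for ELF1, ELK4, JUND and PANC1 ETS1, and the ETS1 regions with GABPA sit at 47.4 and 32.0%, which was not tested.

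Merging the overlapping intervals of all 7 lists gave 150 sites in the stretch and 783 in the rest. ETS1 of DU145 alone made up 75 of the 150 (50%), against 503 (64.2%), and ETS1 with GABPA 51 (34.0%), against 144 (18.4%). The stretch was chosen by its GABPA peaks, so these shares are descriptions and were not tested. Sites of 3 or more samples numbered 7 (4.67%), against 46 (5.87%). All 7 held ETS1 and GABPA, as did most of the 46 in the rest. The 7 of the stretch were the ELK4 sites at 55895143 and 56165011, the ELF1 site at 58816061, and the PANC1 sites at 56110229 to 56112291, 58837467 to 58839413, 58897723 to 58899368 and 59065514 to 59067186. The last was the only site of 4 samples, with ETS1 of both lines, GABPA and JUND. The lists do not say how strongly any factor was bound there.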

How the data were processed

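Peak lists of 3 columns (chromosome, start, end) were used as deposited by the authors; they hold no score. The submitters' processing notes name Bowtie2 2.0.6 and hg19. For the peak caller, its threshold and the inputs' use, the sources used here give nothing. Centres decided which peaks lie in the stretch. Overlap meant at least 1 bp, and shares have exact 95% intervals (Clopper-Pearson) for counting error. Two-sided Fisher's exact tests with conditional odds ratios compared the stretch with the rest of chromosome 19, adjusted by the Benjamini-Hochberg method over 19 tests. Peaks of 1 sample are not replicates, so p-values describe these lists. The overlap and test steps were tested on simulated data. Sites named were those of 3 or more samples, all ELF1, ELK4, JUND and PANC1 ETS1 peaks, GABPA peaks without an ETS1 region, the closest GABPA pairs, the widest GABPA gaps and the widest ETS1 regions. The members and lists were chosen with earlier results of these data known. No hg19 genome was given, so the planned test of gene starts and motifs at peaks was replaced by RefSeq GRCh38.p14 promoters. These were matched by gene identifier for 93 of 110 zinc finger genes, using the first listed start. The 13 alternatives included other overlap rules, either ETS1 list, the earlier lines of each DU145 list up to its midpoint (the PANC1 list, grouped by chromosome, was left whole), a shifted start and other reference regions. Python 3.11.15, NumPy 2.4.6, SciPy 1.17.1 and Matplotlib 3.10.9 were used.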

Additional observations from a re-analysis of the deposited data

How the results depend on the processing

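The 13 alternatives gave 197 tested values, of which 172 kept their direction and their side of the threshold, 22 reversed and 3 passed it. Of 79 other values, 68 stayed, 9 moved and 2 reversed. The GABPA share at ETS1, 0.846 as an odds ratio, was 1.46 with 500 bp intervals, 1.60 with the second ETS1 list alone, 1.14 with the stretch starting 1 Mb later and 1.03 against all other chromosomes. For PANC1 it was 1.72 with centres within 200 bp, 1.61 with intervals within 500 bp, 2.34 with 500 bp intervals and 1.88 against other chromosomes. For JUND it was 1.22 with 500 bp intervals, 3.11 with the second list alone, 1.86 with the union of both and 1.12 against other chromosomes. For ELF1 the share at ETS1, below that of the rest by 32.6 percentage points (-32.6), was 13 points above it with the first list alone and 8.70 with the union, and for ELK4 the difference of 16.1 points was -14.5 with the second list alone. Second-list peaks that meet the first gave 0.960 within 500 bp, 0.964 from 1 Mb later and 0.819 against the long arm. GABPA with JUND gave 1.62 with centres within 200 bp and 1.60 against the long arm. ETS1 regions with PANC1 gave 0.939 with the earlier lines of the DU145 lists up to their midpoint, the PANC1 list being left whole, and those with ELK4 1.10 against other chromosomes. Past the threshold by Fisher's exact test, with centres within 200 bp, were the first list meeting the second (2.18, adjusted p 0.00484) and the second meeting the first (1.84, adjusted p 0.0380). The JUND placement against other chromosomes also passed by Fisher's exact test (0.313, adjusted p 0.0423), with an ETS1 reference that moves with the choice of the stretch. That choice can enter the overlap of the ETS1 lists as well, and nothing is read from any of the 3. The ELK4 density ratio of 0.941 was 1.12 from 1 Mb later and 1.04 against the long arm, and that of PANC1, 2.82, was 1.76 against the long arm. With the earlier lines up to the midpoint, the share of ETS1 regions with GABPA fell to 21.1%, the density ratios were 1.74 for the first ETS1 list, 1.58 for GABPA, 0.365 for ELK4 and 0.243 for JUND, and the median distances were 28.8 kb for the first ETS1 list, 30.1 kb for the second, 66.3 kb for GABPA and 30.2 kb for ETS1 regions. Halving a list leaves fewer peaks, and the cause of the other changes was not tested. Distance to gene starts and motifs at peaks were not run. No paired analysis was possible because the labels give no replicates. The depth of each list is unknown, and lists of 2 to 12 peaks limit every comparison of ELF1, ELK4, JUND and PANC1.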

Other observations

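The order of lines in the deposited DU145 lists has no stated meaning, but it differed between the stretch and the rest. Of the GABPA peaks of the stretch, 35.6% (23.6 to 49.1) stood before the midpoint of the lines, against 51.1% in the rest. Of the second ETS1 list it was 64.4% (55.6 to 72.5) and 53.5%, and of the first 63.1% and 51.3%. ETS1 regions with GABPA had a median line percentile in the second list of 28.2 in the stretch and 17.3 in the rest, and those without GABPA had 34.2 and 50.5. These are values without a test, and their part in the results was not tested.

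ETS1 regions with GABPA were a median of 1285 bp wide in the stretch and 1436 bp in the rest, and those without were 1334 and 1259 bp wide. Of all protein-coding zinc finger promoters on other chromosomes 33.7% held CCGGAAG or its reverse complement, against 33.8% on chromosome 19 outside its end. Counting any listed start of a gene in place of the first, the share was 62.4% at the end of chromosome 19 and 16.5% over all protein-coding genes.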
